A study of Homo sapiens with 48 samples.

Results

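The genes described here are 43 genes of the endoplasmic reticulum (ER), the compartment where secreted and membrane proteins are folded. They comprise 15 chaperones and their partners, 4 protein disulfide isomerases, 11 genes of ER-associated degradation (ERAD), 5 stress sensors and transcription factors, 7 genes of the translocon, signal peptidase and COPII vesicle coat, and WFS1, an ER membrane protein. They were taken by symbol from a table of raw read counts with 33892 rows. The list was drawn up by function, with earlier results of these data known. The samples are 48 RNA libraries of 8 established human cancer cell lines, with 3 biological replicates in each of 16 groups. By tumour of origin, 2 lines come from colon (RKO, DLD-1), 2 from lung (H-23, H-1299), 2 from pancreas (PANC-1, CAPAN-2) and 2 from multiple myeloma (H-929, RPMI). Each line received carfilzomib, an irreversible inhibitor of the proteasome, for 24 h at the IC50 of proteasome activity, or the solvent DMSO as control. The concentrations are not given in the sources used here, no genotype was changed and no other agent is named. The title of the study names the HSP70-driven response of cancer cells to loss of proteasome activity.

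Misfolded proteins in the ER are sensed by 3 membrane proteins, IRE1 (gene ERN1), PERK (gene EIF2AK3) and ATF6, and the program they start is the unfolded protein response. IRE1 splices the XBP1 mRNA, ATF6 is released as a transcription factor, and PERK slows translation while allowing ATF4 to be made; the first pair raises chaperone and ERAD genes. ERAD carries misfolded proteins back to the cytosol through the HRD1 complex and hands them to the proteasome, the target of carfilzomib. Plasma cells, from which myeloma arises, secrete antibody in bulk, and XBP1 and a large ER are part of their identity.

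The promoters of 4 members are shown because they hold the DNA elements through which ATF6 and XBP1 are known to act, and because these 4 genes moved differently under the drug. The windows come from RefSeq (GRCh38.p14), which had one for 38 of the 43 members, from 250 bases before to 50 after the start. They are printed 5′ to 3′ on the strand of the gene, up to the first start of RefSeq or GENCODE 29, with the motif in capitals. HSPA5 at chr9:125241344-125241593 (- strand) and XBP1 at chr22:28800598-28800819 (- strand) hold the ER stress response element ERSE, searched as CCAAT and CCACG with any 9 bases between them. HERPUD1 at chr16:56931892-56932047 (+ strand) and SDF2L1 at chr22:21642052-21642260 (+ strand) hold ERSE-II, searched as ATTGG and CCACG with any 1 base between them, which in SDF2L1 reads on the other strand.
HSPA5: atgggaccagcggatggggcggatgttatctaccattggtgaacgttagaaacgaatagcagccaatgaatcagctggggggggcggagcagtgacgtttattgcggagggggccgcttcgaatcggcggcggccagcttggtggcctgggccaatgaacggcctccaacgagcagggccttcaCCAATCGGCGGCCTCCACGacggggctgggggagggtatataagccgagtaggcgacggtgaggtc
HERPUD1: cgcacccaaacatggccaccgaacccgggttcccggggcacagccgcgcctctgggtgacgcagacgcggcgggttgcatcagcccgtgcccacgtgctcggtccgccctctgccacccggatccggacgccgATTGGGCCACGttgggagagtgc
SDF2L1: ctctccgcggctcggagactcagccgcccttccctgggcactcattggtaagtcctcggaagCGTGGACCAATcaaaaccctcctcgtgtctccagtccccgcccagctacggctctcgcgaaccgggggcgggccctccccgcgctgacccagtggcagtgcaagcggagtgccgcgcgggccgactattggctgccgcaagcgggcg
XBP1: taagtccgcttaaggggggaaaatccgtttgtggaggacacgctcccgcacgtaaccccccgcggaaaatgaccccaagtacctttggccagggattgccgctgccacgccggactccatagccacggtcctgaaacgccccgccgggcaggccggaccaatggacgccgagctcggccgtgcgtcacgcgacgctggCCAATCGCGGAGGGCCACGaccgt
Counted from the RefSeq start, the motif begins at -66 in HSPA5, -117 in HERPUD1, -188 in SDF2L1 and -52 in XBP1. A gene counts as holding a motif if any of its windows does. On both strands, ERSE was found in 7 of the 38 members (CALR, CANX, CRELD2, HSP90B1, HSPA5, PDIA6 and XBP1) and in 0.0916% of all 27305 gene symbols. ERSE-II was found in 3 members (HERPUD1, HYOU1 and SDF2L1) and in 0.0696% of symbols. The UPR element TGACGTGG was found in 2 members (DNAJC10 and HYOU1) and in 0.927% of symbols. In HYOU1 a match of TGACGTGG overlaps one of ERSE-II. A match describes letters and does not show that a factor binds there.

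Total counts ran from 9.12 to 64.4 M (mega) per library and were lowest in H-929 (9.12 to 18.9 M). Members had 28 counts or more in every library, apart from FKBP2 (at most 24), DERL3 (at most 52) and any rows split as described below. In DMSO all 9 plasma cell markers checked (SDC1, TNFRSF17, IRF4, PRDM1, POU2AF1, MZB1, JCHAIN, CD38 and SLAMF7) stood at 1 CPM or more (CPM, counts scaled to library size with TMM factors) in H-929 and RPMI, and 2 to 3 of them in the other lines. Of 7 epithelial markers (KRT8, KRT18, KRT19, EPCAM, CDH1, KRT7 and CLDN4), 7 reached that level in DLD-1, H-23, PANC-1 and CAPAN-2, 4 in H-1299, 3 in RKO, 6 in RPMI and 2 in H-929. The epithelial markers summed to 243 CPM in RPMI and to 137 CPM in RKO, against 9199 CPM in DLD-1. Because bulk RNA was measured, fewer cells of a kind and less RNA per cell cannot be told apart. HYOU1, CANX and DERL3 each appear as 2 rows that share an identifier, which were summed, and their values are uncertain.

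Carfilzomib was first set against DMSO in every line separately, and many ER genes rose in some lines and fell in others. Most members rose in H-1299 and CAPAN-2 and fell in H-929 and PANC-1, while RPMI, H-23 and DLD-1 held calls in both directions and RKO held few. Here a gene counts as called at an adjusted p under 0.05 in edgeR's quasi-likelihood test, with Benjamini-Hochberg adjustment over all genes tested in the line. In H-1299, 26 of 41 members tested were higher, where 29.9% of all genes were, and 7 were lower, where 31.3% were. CAPAN-2 had 27 of 41 higher beside 25.8% of all genes, and 5 lower beside 26.7%. The median member changed by 0.30 on the log2 scale in H-1299 and by 0.28 in CAPAN-2, where the median of all genes lay at -0.014 and -0.021.

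H-929 went the other way: 29 of 42 members were lower, where 26.2% of all genes were, and 3 were higher, where 26.4% were. Of the lower members 7 fell by at least 2-fold, a size of fall not counted over all genes. The median member in H-929 changed by -0.65, with all genes at 0.029. PANC-1 had 25 of 42 lower beside 18.2% of all genes and 8 higher beside 20.5%, with a median of -0.15. In RPMI, 19 of 41 were higher beside 31.3% of all genes and 14 lower beside 32.2%, so the share of lower calls (34.1%) was near the background and the median was 0.025. H-23 had 17 of 41 higher beside 17.7% of all genes and 8 lower beside 16.2%.

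DLD-1 had 9 of 42 higher beside 10.9% and 8 lower beside 12.1%, and RKO had 2 of 41 higher beside 3.62% and none lower beside 5.28%. The 2 calls in RKO were DNAJC10 and CANX; 0 or 1 member was called when any 1 library was left out, and DESeq2 called 1 higher and 0 lower. At an unadjusted p under 0.05 in edgeR, 3 members were higher and 4 lower in RKO. Leaving out 1 library also moved the count of higher members to 5 in DLD-1 (without carfilzomib replicate 3), to 11 in H-23 (without DMSO replicate 2) and to 5 in PANC-1 (without DMSO replicate 3 or carfilzomib replicate 2), and the count of lower members in CAPAN-2 to 2 (without carfilzomib replicate 3). Scaling to library totals moved the median of all genes in H-1299 by -0.11, and the higher share of called members there from 78.8% to 66.7%. In DLD-1 the same change moved that share from 52.9% to 63.2%. DESeq2's size factors moved it by less than 10 percentage points in each line.

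**Figure D1:**
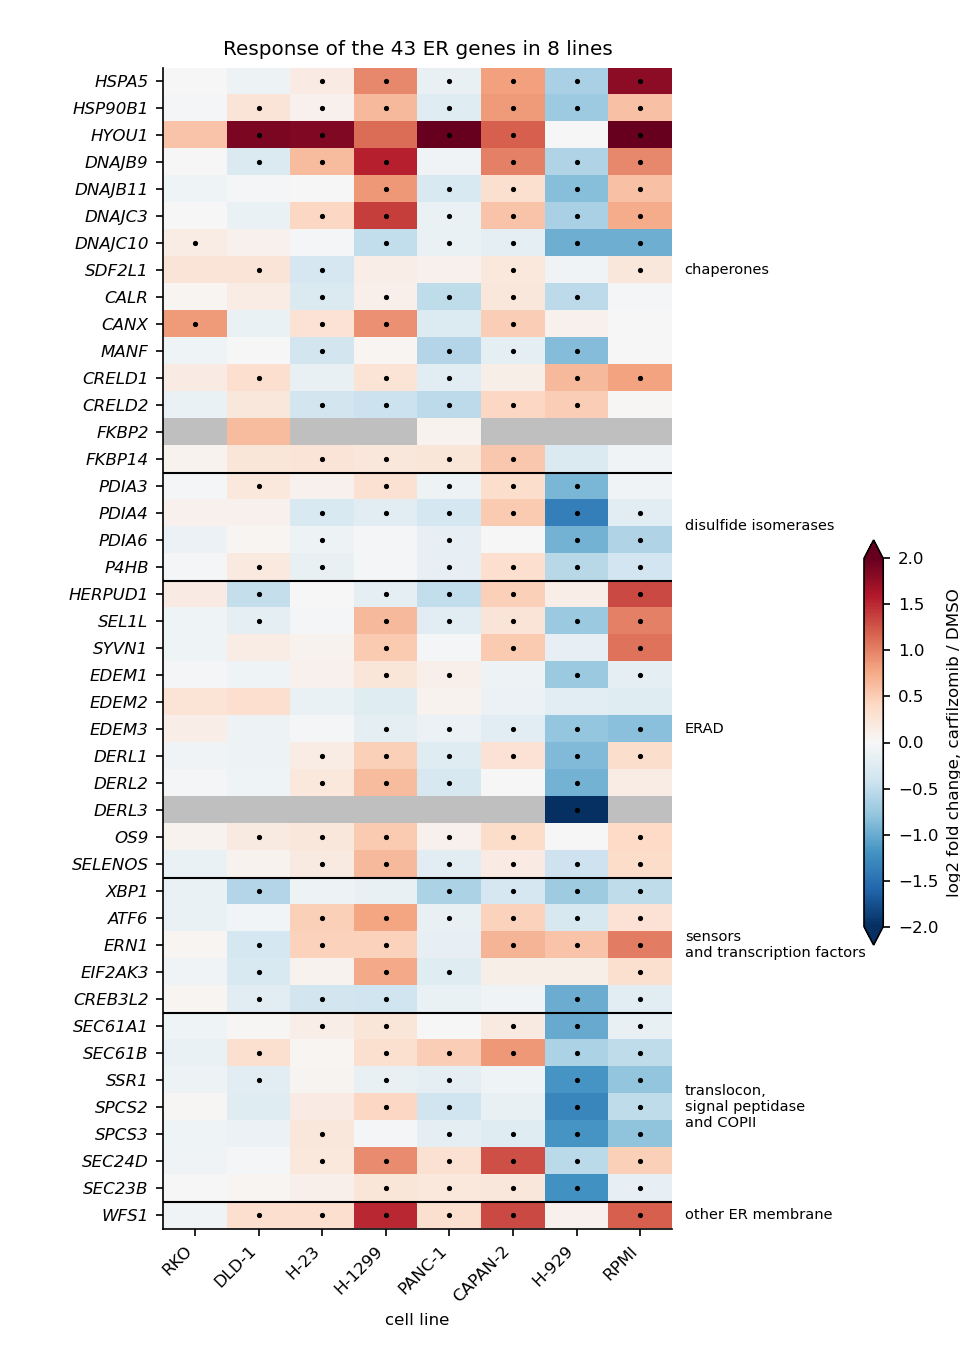
Log2 fold change (carfilzomib against DMSO, edgeR, 3 libraries against 3) of the 43 ER genes (rows, grouped by role) in 8 lines (columns). Colours saturate at 2, dots mark an adjusted p under 0.05 and grey marks members not tested; H-1299 and CAPAN-2 are mostly red, H-929 mostly blue, and HYOU1, CANX and DERL3 are sums of 2 rows.

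Of the 41 members tested in every line, 28 (68.3%) were called higher in at least 1 line and lower in another, against 47.9% of all genes tested in every line. In a joint edgeR fit of all 48 libraries the response differed between lines for 39 of 43 members, beside 67.7% of all genes; HYOU1, FKBP2, EDEM2 and DERL3 were not called. OS9 and WFS1 were called higher in 6 lines, which 4.10% of all genes were, and no member was called lower in 6 or more lines, which 4.28% of all genes were. The members called lower in 5 lines were DNAJC10, PDIA4, EDEM3, XBP1, CREB3L2 and SSR1. The share of all genes called lower in 5 lines was not counted, so this list describes the members alone.

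Summed over all 43 genes, the ER genes took 1.86% ± 0.043 (SD, n = 3) of the counts of a DMSO library in H-929 and 1.23% ± 0.018 (SD, n = 3) with carfilzomib. In RPMI their share was 1.23% ± 0.028 (SD, n = 3) with DMSO and 1.38% ± 0.014 (SD, n = 3) with the drug, and in CAPAN-2 it was 0.910% ± 0.037 (SD, n = 3) and 1.16% ± 0.059 (SD, n = 3). The libraries of the 2 treatments did not overlap in any of these 3 lines, and the direction was down in H-929 and up in RPMI and CAPAN-2. PANC-1 went from 0.845% ± 0.014 (SD, n = 3) to 0.738% ± 0.023 (SD, n = 3), while H-23 stood at 0.611% ± 0.014 (SD, n = 3) and 0.610% ± 0.0029 (SD, n = 3).

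Of 14 chaperones and partners tested, 9 were higher and 2 lower in H-1299, 11 and 2 in CAPAN-2 and 8 and 1 in RPMI, beside 29.9%, 25.8% and 31.3% of all genes higher. In H-929, 8 of 14 were lower and 2 higher, beside 26.2% of all genes lower. HSPA5 encodes BiP, the HSP70 of the ER and the classic readout of the unfolded protein response (chr9:125234853-125241330, - strand in GENCODE 29). In RPMI, HSPA5 stood at 481, 484 and 498 CPM with DMSO and 1788, 1505 and 1778 CPM with carfilzomib. In H-929 it stood at 1065, 1171 and 1010.1 CPM with DMSO and 726, 700.5 and 648 CPM with carfilzomib. Neither pair of groups overlapped, and the 2 myeloma lines moved apart: the log2 fold change was 1.79 ± 0.067 (SE; adjusted p = 8.7e-11) in RPMI and -0.65 ± 0.077 (SE; adjusted p = 7.9e-06) in H-929. In H-1299 the gene stood at 151, 141 and 149 CPM with DMSO and 309.9, 282 and 269 CPM with carfilzomib, and in CAPAN-2 at 494, 442 and 523 CPM with DMSO and 959, 763 and 859 CPM with carfilzomib. Both rose without overlap, by 0.97 ± 0.053 (SE; adjusted p = 8.9e-09) and 0.82 ± 0.081 (SE; adjusted p = 8.8e-07). RKO, which had the highest DMSO level of the 6 carcinoma lines, read 1113, 1211 and 1185 CPM with DMSO and 1143, 1163 and 1176 CPM with carfilzomib, with overlapping groups and a log2 fold change of -0.011 ± 0.039 (SE; adjusted p = 0.905). HSPA5 was also called in PANC-1 (-0.14) and in H-23 (0.17), and the call in H-23 was lost in 5 of 6 fits that left out 1 library; the value was 0.075 without DMSO replicate 1.

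HSP90B1, which encodes GRP94, the HSP90 of the ER, was called in every line but RKO. It read 951, 943 and 985 CPM with DMSO and 1847, 1720.1 and 1634 CPM with carfilzomib in CAPAN-2, and 2386, 2454 and 2486 CPM with DMSO and 1511, 1537 and 1361 CPM with carfilzomib in H-929. The groups were separate in both, with log2 fold changes of 0.85 ± 0.057 (SE; adjusted p = 1.5e-08) and -0.73 ± 0.071 (SE; adjusted p = 1.1e-06). Among the J-domain co-chaperones of BiP, 3 were called higher in H-1299 and RPMI and lower in H-929. DNAJB9 (ERdj4), which binds unfolded chains and holds IRE1 off, read 16.1, 16.4 and 16.5 CPM with DMSO and 49.9, 44.6 and 49.98 CPM with carfilzomib in H-1299, a log2 fold change of 1.56 ± 0.068 (SE; adjusted p = 1.1e-09), the largest called rise among members with 1 row there and, in H-23 as well (0.64), above every other such member. It rose in CAPAN-2 (1.01) and RPMI (0.97) and fell in H-929 (-0.60). It was also called lower in DLD-1 (-0.29), a call lost in 3 of 6 fits that left out 1 library. DNAJC3 (p58IPK), a co-chaperone that restrains PERK, changed by 1.38 in H-1299, 0.75 in RPMI and -0.65 in H-929, all called. DNAJB11 (ERdj3) changed by 0.87, 0.59 and -0.85 in the same lines, also all called.

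DNAJC10 (ERdj5), the J-domain disulfide reductase that helps unfold ERAD clients, did not follow the other J-domain genes. It read 479.8, 488 and 481 CPM with DMSO and 242, 254 and 242 CPM with carfilzomib in RPMI and 90.1, 91.6 and 92.7 CPM with DMSO and 38.3, 55 and 45.7 CPM with carfilzomib in H-929. The groups were far apart in both, and the falls were of like size, -0.97 ± 0.049 (SE; adjusted p = 1.3e-09) and -0.98 ± 0.12 (SE; adjusted p = 7.9e-06). In RPMI no member fell more, and in H-1299 its fall (-0.49) was also the largest. In RKO it was called higher (0.15), from 187, 184 and 184 CPM with DMSO and 208, 204 and 203 CPM with carfilzomib, a call lost in 5 of 6 fits that left out 1 library.

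**Figure D2:**
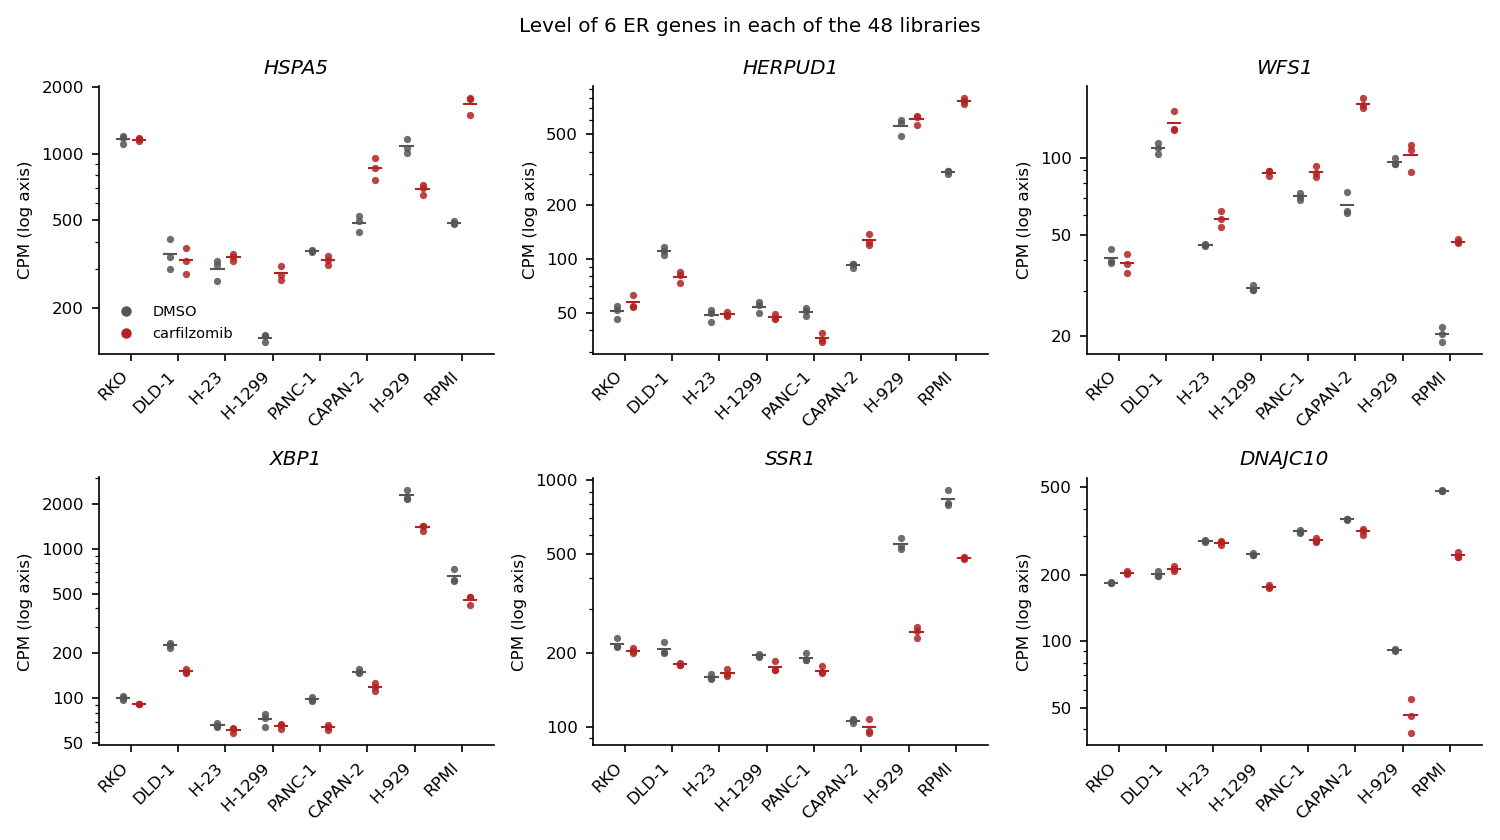
CPM (log axis) of HSPA5, HERPUD1, WFS1, XBP1, SSR1 and DNAJC10 in each of the 48 libraries, by line; grey points are DMSO, red points carfilzomib, and bars are means of 3. HSPA5 and HERPUD1 are at their highest carfilzomib levels in RPMI, XBP1 is lower with the drug in each line by its mean, and SSR1 and DNAJC10 drop most in H-929 and RPMI.

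Other chaperones of the lumen moved in mixed directions. CRELD2, a secreted disulfide isomerase of the unfolded protein response, rose in H-929 from 52.9, 52.1 and 55.4 to 68.5, 73.5 and 84.6 CPM (0.50 ± 0.10 SE, adjusted p = 7.9e-04), while most chaperones fell there. It fell in PANC-1, H-1299 and H-23, where its -0.37 ± 0.060 (SE; adjusted p = 2.8e-04) was the largest called fall of any member. CRELD1, its membrane-bound relative, rose in both myeloma lines, in H-929 from 13.7, 14.8 and 18 to 20.8, 24.7 and 27.2 CPM and in RPMI from 16.7, 18.4 and 15.7 to 29.6, 28.3 and 30.9 CPM. These are log2 fold changes of 0.65 ± 0.16 (SE; adjusted p = 0.00294) and 0.81 ± 0.087 (SE; adjusted p = 2.2e-06), and the first was the largest called rise in H-929. CRELD1 also rose in DLD-1, at 33.5, 37.3 and 34.8 CPM with DMSO and 44, 42.4 and 46.9 CPM with carfilzomib, the largest called rise there among members with 1 row (0.34). SDF2L1, a partner of ERdj3 whose promoter is printed above, was called in 4 lines, with values between -0.33 in H-23 and 0.26 in DLD-1; 3 of these calls, those in DLD-1, CAPAN-2 and RPMI, were lost in 3 or 4 of 6 fits that left out 1 library. MANF, a secreted ER stress protein, was called lower in 4 lines (-0.86 in H-929, -0.58 in PANC-1, -0.37 in H-23 and -0.19 in CAPAN-2, the last lost in 3 of 6 such fits) and higher in none. FKBP14, a prolyl isomerase, was called higher in 4 lines, by at most 0.54 in CAPAN-2. CALR, the lectin chaperone calreticulin, was called lower in 3 lines and higher in 2, from -0.52 in H-929 to 0.23 in CAPAN-2; its call in H-1299 (0.10) was lost in every fit that left out 1 library and turned to -0.011 with library totals.

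HYOU1 and CANX cannot be read as firmly. HYOU1, a large HSP70-like nucleotide exchange factor of BiP, had libraries that stood apart within groups, as in PANC-1, where it read 3.84, 2.78 and 3.02 CPM with DMSO and 3.04, 56.5 and 6.36 CPM with carfilzomib, and in H-929, where it read 33.6, 117 and 23.3 CPM with DMSO and 71.8, 30.7 and 72.3 CPM with carfilzomib. Its called log2 fold changes were 1.89 in DLD-1, 1.86 in H-23, 2.79 in PANC-1, 1.19 in CAPAN-2 and 2.57 in RPMI. In H-23 it rested on carfilzomib replicate 2, without which it was -0.036, and in PANC-1 also on carfilzomib replicate 2, without which it was 0.55 (adjusted p = 0.141). The call was lost in 4 of 6 fits that left out 1 library in H-23 and in 2 of 6 in DLD-1 and PANC-1, and in RPMI the value was 1.70 without carfilzomib replicate 3. CANX, the lectin chaperone calnexin, was called higher in RKO at 0.85 ± 0.23 (SE; adjusted p = 0.0364) with both rows summed, and stood at -0.22 (adjusted p = 0.328) with its listed row alone and at 0.52 without carfilzomib replicate 1. FKBP2 was tested in DLD-1 and PANC-1 only, with at most 24 counts per library, and was called in neither.

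Disulfide isomerases, which form and shuffle the disulfide bonds of secreted proteins, fell in H-929. All 4 were called lower there, with a median of -0.93, beside 26.2% of all genes lower. PDIA4 (ERp72) read 977, 1053 and 985 CPM with DMSO and 349, 412 and 411 CPM with carfilzomib in H-929. The groups were well separated, and the log2 fold change of -1.36 ± 0.080 (SE; adjusted p = 9.5e-09) was the largest called fall in the line among members with 1 row. RPMI had 3 of 4 lower, beside 32.2% of all genes. These were PDIA6 (-0.60 ± 0.058 SE, adjusted p = 7.6e-07 in edgeR), P4HB (-0.38) and PDIA4 (-0.20). In CAPAN-2 the direction was the opposite, with 3 of 4 higher beside 25.8% of all genes. PDIA4 read 929.6, 955 and 1009 CPM there with DMSO and 1455, 1373 and 1337 CPM with carfilzomib, a rise of 0.53. PDIA3 and P4HB were also higher. DLD-1 had PDIA3 (0.21) and P4HB (0.20) higher, beside 10.9% of all genes. The call of P4HB there was lost in 4 of 6 fits without 1 library. PANC-1 had all 4 lower, beside 18.2% of all genes, and H-23 had 3 lower, beside 16.2%, with values no further from 0 than -0.36.

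Of 10 ERAD genes tested, 7 were higher and 2 lower in H-1299, 6 and 1 in CAPAN-2 and 6 and 2 in RPMI, beside 29.9%, 25.8% and 31.3% of all genes higher. In H-929, 7 of 11 were lower and none higher, beside 26.2% of all genes lower. The membrane core of the HRD1 complex showed the contrast of the myeloma lines. HERPUD1, an adaptor of the complex and an ATF6 and XBP1 target, read 313, 312 and 300.3 CPM with DMSO and 773, 799 and 738 CPM with carfilzomib in RPMI. In H-929 it read 578, 606 and 487 CPM with DMSO and 562, 637 and 628 CPM with carfilzomib. Only the RPMI groups were separate, with a log2 fold change of 1.32 ± 0.052 (SE; adjusted p = 1.4e-10) against 0.13 ± 0.087 (SE; adjusted p = 0.236). In DLD-1, HERPUD1 fell to 72.8, 84.7 and 81.2 CPM from 111, 105 and 117 CPM (-0.48 ± 0.063 SE, adjusted p = 4.4e-04), and in PANC-1 it changed by -0.49.

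SEL1L, the scaffold of the complex, read 141, 131 and 130.3 CPM with DMSO and 267, 279 and 262 CPM with carfilzomib in RPMI and 374, 405 and 359 CPM with DMSO and 227, 231 and 225 CPM with carfilzomib in H-929. It rose in the first by 1.01 ± 0.054 (SE; adjusted p = 2.5e-09) and fell in the second by a log2 change of -0.74 ± 0.073 (SE; adjusted p = 1.4e-06), without overlap in either. SYVN1, the ubiquitin ligase HRD1 itself, rose in RPMI from 46.9, 43 and 49.4 to 104, 96.8 and 94.6 CPM (1.08 ± 0.064 SE, adjusted p = 6.1e-09), and in H-929 its -0.17 ± 0.074 (SE; adjusted p = 0.0669) did not pass the threshold. DERL1 and DERL2, derlins of the retrotranslocation channel, were both lower in H-929 (-0.89 and -0.95) and both higher in H-1299 (0.48 and 0.63). SELENOS, the selenoprotein that brings VCP to the derlins, changed by 0.65 in H-1299 and -0.41 in H-929, both called.

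The mannosidase-like EDEM proteins, which mark glycoproteins for degradation, held calls in both directions. EDEM3 fell in RPMI (-0.83 ± 0.062 SE, adjusted p = 6.1e-08) and in H-929 (-0.78 ± 0.068 SE, adjusted p = 4.5e-07) and was called higher in no line. EDEM1 fell in H-929 (-0.74), was called lower in RPMI (-0.18) and was called higher in H-1299 (0.24) and PANC-1 (0.11); each of the last 3 calls was lost in 4 or 5 of 6 fits that left out 1 library. EDEM2 was called in no line. DERL3, a derlin of secretory cells, was tested in H-929 only and read 0.968, 2.22 and 3.53 CPM with DMSO and 0.101, 0.431 and 0.437 CPM with carfilzomib, at most 52 counts in a library, with -2.77 ± 0.67 (SE; adjusted p = 0.00293).

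OS9, a lectin that delivers glycoproteins to SEL1L, and WFS1, wolframin, were the members called higher in 6 lines. Their share of the members was near that of all genes (4.10%), so the values below describe 2 genes. WFS1 read 30.5, 31.7 and 30.4 CPM with DMSO and 89.1, 89.2 and 85 CPM with carfilzomib in H-1299. It read 60.8, 61.9 and 73.7 CPM with DMSO and 172, 161 and 158 CPM with carfilzomib in CAPAN-2, and 19.1, 21.8 and 20.4 CPM with DMSO and 48.2, 46.8 and 46.3 CPM with carfilzomib in RPMI. These 3 lines had separate groups and changes above 2-fold: 1.51 ± 0.051 (SE; adjusted p = 1.8e-10), 1.32 ± 0.074 (SE; adjusted p = 2.4e-09), the largest called rise in that line, and 1.20 ± 0.073 (SE; adjusted p = 7.9e-09). DLD-1, H-23 and PANC-1 had smaller rises, from 115, 109 and 104 to 129.6, 130.2 and 153 CPM in DLD-1, from 45.4, 45.5 and 46.1 to 57.7, 53.7 and 62 CPM in H-23, and from 73.3, 70.8 and 68.8 to 93.3, 87.6 and 84.8 CPM in PANC-1. Their log2 fold changes were 0.33, 0.34 and 0.32, and the gene was not called in RKO (-0.074) or H-929 (0.085).

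OS9 changed less. It read 182, 179.7 and 189.9 CPM with DMSO and 259, 273 and 259 CPM with carfilzomib in H-1299, 365, 301 and 291 CPM with DMSO and 433, 439 and 392 CPM with carfilzomib in RPMI and 344, 334 and 374 CPM with DMSO and 476, 453 and 426 CPM with carfilzomib in CAPAN-2. The rises were 0.52 ± 0.041 (SE; adjusted p = 2.3e-07), 0.40 ± 0.079 (SE; adjusted p = 5.4e-04) and 0.37 ± 0.061 (SE; adjusted p = 1.6e-04), with no overlap of groups. In H-23 it read 265, 253 and 267 CPM with DMSO and 308, 297 and 314 CPM with carfilzomib, in DLD-1 208, 198 and 199 CPM with DMSO and 227, 226 and 230.4 CPM with carfilzomib and in PANC-1 338, 326 and 341 CPM with DMSO and 359, 358 and 348 CPM with carfilzomib. Those changes were 0.23, 0.18 and 0.084; the call was lost in 5 of 6 fits without 1 library in PANC-1 and in 2 of 6 in DLD-1. RKO (0.071) and H-929 (0.0091) were not called, though H-929 stood at -0.15 (adjusted p = 0.0241) in the fit of all libraries.

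Among the sensors and transcription factors, ERN1 rose while XBP1, the mRNA it splices, fell in H-929, RPMI and CAPAN-2. XBP1 was not called in RKO, H-23 or H-1299, ERN1 was not called in RKO or PANC-1, and both fell in DLD-1. ERN1 read 172, 158 and 161 CPM with DMSO and 350.3, 325 and 320.2 CPM with carfilzomib in RPMI and 223, 204 and 223 CPM with DMSO and 307, 305 and 358 CPM with carfilzomib in H-929. It rose without overlap in both, by 1.02 ± 0.057 (SE; adjusted p = 3.3e-09) and 0.58 ± 0.082 (SE; adjusted p = 4.1e-05), and also in CAPAN-2 (0.69), H-23 (0.46) and H-1299 (0.46), while it fell in DLD-1 (-0.35). XBP1 read 2190.4, 2493 and 2172 CPM with DMSO and 1321, 1434 and 1432 CPM with carfilzomib in H-929, and 736, 622 and 608 CPM with DMSO and 477, 475 and 423 CPM with carfilzomib in RPMI. It fell in both, by log2 changes of -0.71 ± 0.075 (SE; adjusted p = 2.6e-06) and -0.51 ± 0.074 (SE; adjusted p = 3.8e-05). In the carcinoma lines XBP1 read 103, 96.8 and 98 CPM with DMSO and 61.6, 66.5 and 64 CPM with carfilzomib in PANC-1 and 236, 217 and 227 CPM with DMSO and 147, 158 and 149.6 CPM with carfilzomib in DLD-1. These falls, -0.63 ± 0.041 (SE; adjusted p = 1.6e-07) and -0.58 ± 0.049 (SE; adjusted p = 2.7e-05), were the largest called falls of any member in those lines, as was the one in CAPAN-2, from 149, 147 and 157 to 127, 119 and 112 CPM (-0.34 ± 0.060 SE, adjusted p = 2.2e-04). The counts do not separate spliced from unspliced XBP1 mRNA.

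ATF6 was called higher in 4 lines, H-1299 (0.79), H-23 (0.48), CAPAN-2 (0.46) and RPMI (0.29), and lower in H-929 (-0.32) and PANC-1 (-0.15). EIF2AK3 rose in H-1299 (0.76) and RPMI (0.32) and fell in DLD-1 (-0.31) and PANC-1 (-0.24). CREB3L2, a transcription factor of secretory genes anchored in the ER membrane, read 414, 399 and 405 CPM with DMSO and 190.3, 205 and 218 CPM with carfilzomib in H-929. That was a fall without overlap (-0.99 ± 0.074 SE, adjusted p = 9.7e-08). It was also called lower in H-1299 (-0.40) and H-23 (-0.36), and in DLD-1 and RPMI, where 5 and 4 of 6 fits without 1 library lost the call.

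All 7 members of the translocon, signal peptidase and COPII group were lower in H-929, beside 26.2% of all genes lower. Falls of at least 2-fold were seen in 5 of them and were not counted over all genes. In RPMI 6 of 7 were lower, beside 32.2%, and SEC24D was higher. SSR1, the alpha subunit of the translocon-associated TRAP complex, read 524, 580.4 and 543 CPM with DMSO and 229, 253 and 244 CPM with carfilzomib in H-929 and 916, 792 and 805 CPM with DMSO and 490.3, 485 and 479 CPM with carfilzomib in RPMI. The treatments were separate in both lines, at -1.18 ± 0.074 (SE; adjusted p = 1.7e-08) and -0.79 ± 0.060 (SE; adjusted p = 7.1e-08). SPCS3, a subunit of signal peptidase, read 343, 359 and 329.6 CPM with DMSO and 147, 161 and 146 CPM with carfilzomib in H-929 and 361, 301 and 303 CPM with DMSO and 181, 186 and 185 CPM with carfilzomib in RPMI, with changes of -1.18 and -0.80. SPCS2, a further subunit, changed by -1.31 ± 0.089 (SE; adjusted p = 3.5e-08) and -0.51 ± 0.077 (SE; adjusted p = 5.2e-05).

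SEC61A1 is the channel of the translocon and SEC61B its small subunit. SEC61A1 read 452, 481 and 469 CPM with DMSO and 217, 234 and 245 CPM with carfilzomib in H-929 and 564, 535 and 542 CPM with DMSO and 486, 507 and 481 CPM with carfilzomib in RPMI. It was near 2-fold lower in the first (-1.01 ± 0.074 SE, adjusted p = 7.1e-08) and only slightly lower in the second (-0.15 ± 0.050 SE, adjusted p = 0.0155). SEC61B read 141, 160.0 and 139 CPM with DMSO and 88.7, 94.4 and 99.98 CPM with carfilzomib in H-929, 128, 122 and 118 CPM with DMSO and 88.2, 81.6 and 89.8 CPM with carfilzomib in RPMI and 26.5, 29.3 and 28.4 CPM with DMSO and 38.6, 38.4 and 41.6 CPM with carfilzomib in PANC-1. It fell in the myeloma lines (-0.64 and -0.50) and rose in CAPAN-2 (0.86), DLD-1 (0.33), H-1299 (0.32) and PANC-1, where 0.49 ± 0.054 (SE; adjusted p = 1.3e-05) was the largest called rise among members with 1 row. Of the COPII coat genes, SEC24D rose in CAPAN-2 (1.29 ± 0.058 SE, adjusted p = 3.4e-10), H-1299 (0.94) and RPMI (0.48) and fell in H-929 (-0.54). SEC23B fell in H-929 (-1.20 ± 0.13 SE, adjusted p = 3.5e-06).

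The next comparison asked whether the myeloma lines responded differently from the 6 carcinoma lines, as the mean log2 fold change of H-929 and RPMI minus that of the others in the joint fit. The response was lower in the myeloma lines for 28 of 43 members, beside 25.2% of all genes, and higher for 6, beside 19.1%. All 7 genes of the translocon, signal peptidase and COPII group and all 4 disulfide isomerases were on the lower side, with medians of -0.98 and -0.77 beside -0.40 for all members and 0.064 for all genes. The most negative contrasts were those of SPCS3 (-1.02 ± 0.050 SE, adjusted p = 8.3e-22), SEC61B (-0.99 ± 0.053 SE, adjusted p = 2.0e-20) and DNAJC10 (-0.98 ± 0.044 SE, adjusted p = 4.4e-23). The most positive were HERPUD1 (0.70 ± 0.059 SE, adjusted p = 3.9e-14), CRELD1 (0.53 ± 0.074 SE, adjusted p = 4.0e-08) and ERN1 (0.50 ± 0.054 SE, adjusted p = 8.2e-11).

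These errors are the spread between replicates and not between lines. With the 8 lines as the units (limma), 5 members stayed lower (DNAJC10, PDIA6, EDEM3, SSR1 and SPCS3) and 0 were higher. The smallest adjusted p in limma was 0.0288, for SSR1, and 1596 of 22304 genes were called. An unadjusted p under 0.05 was reached by 16 members, 2 of them higher, beside 6183 of 22304 genes. Leaving out H-929 changed the counts to 15 lower and 15 higher, and leaving out RPMI left 3 higher, so the contrast averages 2 lines that differ. The mean over all 8 lines was called higher for 15 members, beside 19.8% of all genes, and lower for 19, beside 24.0%. With lines as units 0 members and 0 of 22304 genes were called in limma. An unadjusted p under 0.05 was reached by 6 members, 2 of them higher, and by 3445 of 22304 genes, so the members were near the background.

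The difference between the 2 myeloma lines was tested directly. RPMI responded higher than H-929 for 33 of 43 members, beside 21.5% of all genes, and lower for 1, CRELD2 (-0.39 ± 0.12 SE, adjusted p = 0.00692), beside 18.9%; without replicate 2 of each group CRELD2 was not called. The largest differences in members with 1 row were HSPA5 (2.52 ± 0.13 SE, adjusted p = 1.4e-20), SEL1L (1.83 ± 0.077 SE, adjusted p = 2.9e-23) and DNAJB9 (1.65 ± 0.12 SE, adjusted p = 1.1e-15). By the fits within lines, 10 of 41 members (24.4%) were higher in RPMI and lower in H-929, beside 4.71% of all genes tested in both, and none the reverse, beside 2.87%. These 10 were the chaperone genes HSPA5, HSP90B1, DNAJB9, DNAJB11 and DNAJC3, the ERAD genes SEL1L, DERL1 and SELENOS, ATF6 and SEC24D.

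A further 14 members (34.1%) were lower in both, beside 17.8% of all genes: DNAJC10, PDIA4, PDIA6, P4HB, EDEM1, EDEM3, XBP1, CREB3L2, SEC61A1, SEC61B, SSR1, SPCS2, SPCS3 and SEC23B. Only CRELD1 and ERN1 (4.88%) were higher in both, beside 13.5% of all genes. H-929 was sequenced less deeply than RPMI (9.12 to 18.9 against 17.6 to 36.6 M counts). Within H-929 the carfilzomib libraries held 9.93, 9.12 and 9.16 M counts and the DMSO libraries 17.6, 18.9 and 14.6 M. The part of depth in the falls of H-929 and in the difference between the lines was not tested.

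**Figure D3:**
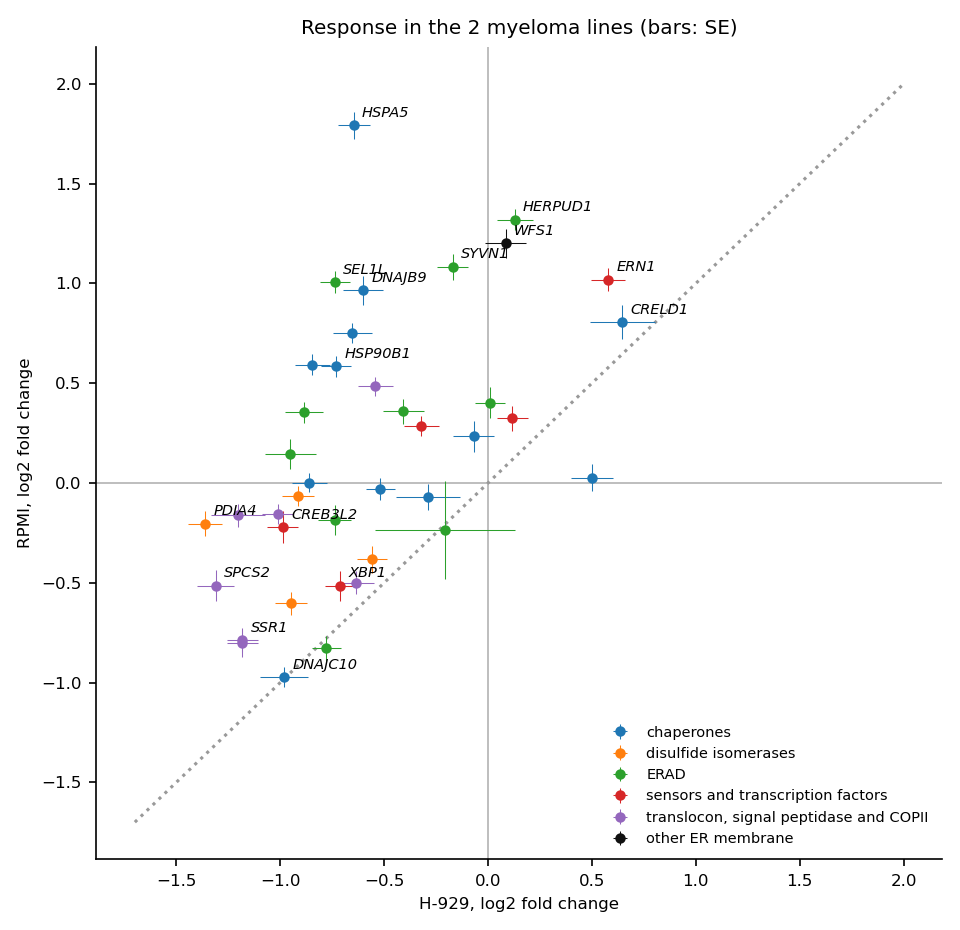
Log2 fold change (carfilzomib against DMSO) in H-929 (x axis) and RPMI (y axis) of the members tested in both lines, HYOU1 and CANX left out; bars are SE of the edgeR fit, colours the roles, and the dotted line marks equal change. HSPA5, SEL1L and DNAJB9 lie far above the line, while DNAJC10, EDEM3 and XBP1 lie near it, lower in both.

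Levels before the drug were compared in DMSO between the myeloma lines and the other 6, on the CPM scale of the joint fit. ER genes were higher in the myeloma lines: 35 of 43 members were called higher, beside 35.5% of all genes, and 6 lower, beside 35.2%. The median of the 40 members with 1 row was 1.05 on the log2 scale, with all genes at -0.072. XBP1 read 2368, 2705 and 2325 CPM in H-929 and 816, 698 and 699.6 CPM in RPMI, against 57.3 to 234 CPM in the 18 DMSO libraries of the other lines. ERN1 read 241, 221 and 238 CPM and 191, 177 and 185 CPM, against 17.3 to 39.8 CPM. Neither gene's myeloma libraries overlapped those of any other line. In the joint edgeR fit the contrasts were 3.65 (± 0.033 SE, adjusted p = 4.1e-52) for XBP1 and 3.08 (± 0.036 SE, adjusted p = 4.0e-48) for ERN1. These errors, and the calls above, rest on the spread between replicates and not between lines. With the 8 lines as the units (limma), the adjusted p was 0.0249 for XBP1 and 0.00573 for ERN1.

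HERPUD1, at 625, 658 and 522 CPM and 347, 349.8 and 346 CPM against 39.4 to 113 CPM, differed by 2.85, EDEM3 by 2.94 and SSR1 by 2.12. DERL3 read 1.05, 2.41 and 3.78 CPM in H-929 and 0.129, 0.238 and 0.0312 CPM in RPMI, and was listed at 0 in every DMSO library of RKO, DLD-1, H-23, H-1299 and PANC-1. EIF2AK3 and CREB3L2 were high in H-929, at 586, 624 and 540.3 CPM and 448, 433 and 433 CPM, and stood at 58.9, 59.2 and 60.4 CPM and 43.5, 50.4 and 50.9 CPM in RPMI. In both myeloma lines 31 members lay above the mean of the other 6, and for 22 members both lay above each of the 6. The same counts were not made over all genes, so they describe the members alone.

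FKBP2 was among the 6 called lower, but with at most 24 counts in a library its row may not measure the level of the gene, and its value is not given. Others called lower in the myeloma lines included PDIA3 (-0.41 ± 0.028 SE, adjusted p = 4.6e-18) and CRELD1 (-0.23 ± 0.053 SE, adjusted p = 1.4e-04). PDIA3 read 243, 247 and 239 CPM in H-929 and 408, 408 and 415 CPM in RPMI, against 216 to 679 CPM, a range that held both. CRELD1 read 14.8, 16 and 19.3 CPM and 18.6, 20.6 and 18 CPM, against 8.22 to 36.3 CPM, and again did not stand apart. With the 8 lines as the units (limma), 5 members were higher (DNAJB9, HERPUD1, XBP1, ERN1 and SSR1) and 0 lower. The smallest adjusted p in limma was 0.00573, for ERN1, and 717 of 22304 genes were called. An unadjusted p under 0.05 was reached by 19 members, all higher, beside 3783 of 22304 genes. Per kilobase of exon, the DMSO level in H-929 was highest for CALR (874 CPM per kb), followed by XBP1 (814) and HSP90B1 (561). In RPMI the order was CALR (502), HSP90B1 (324) and PDIA4 (297). The response and the DMSO contrast share the DMSO libraries, so no relation between them was computed.

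**Figure D4:**
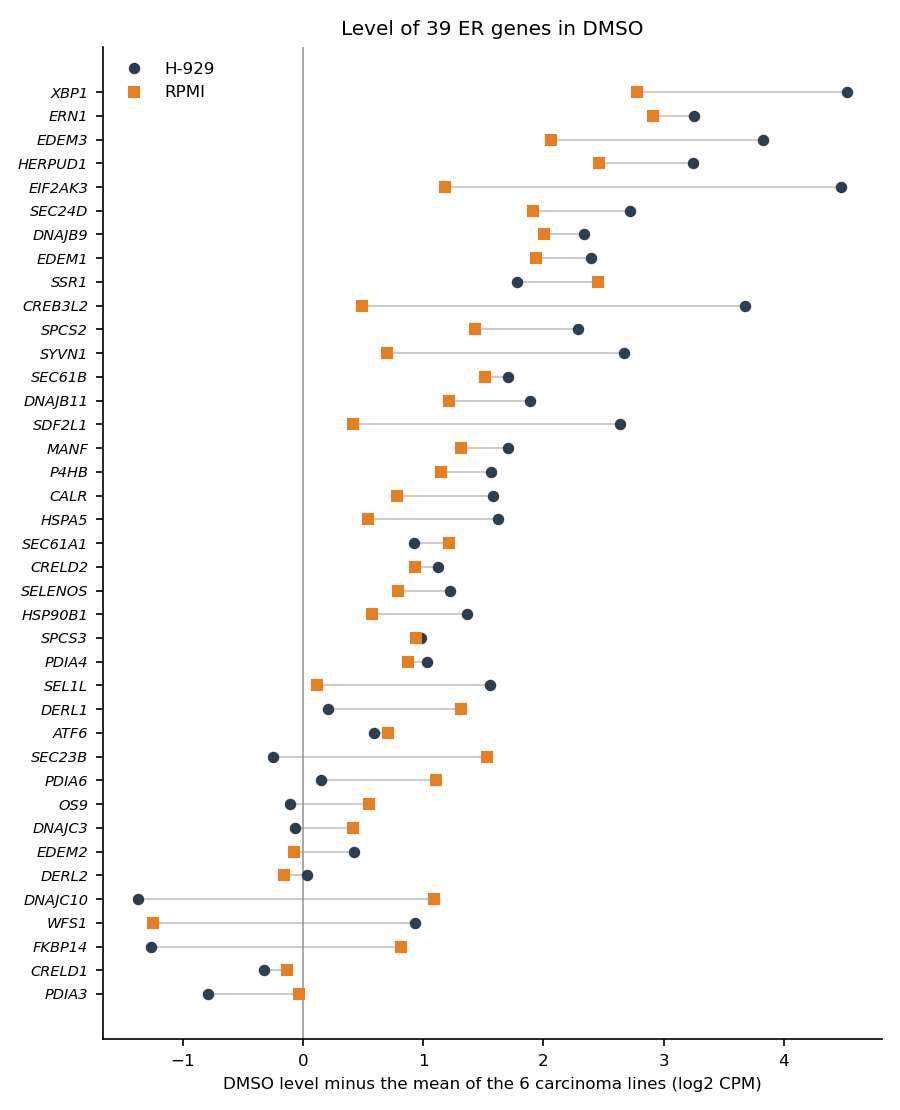
DMSO level of 39 members (rows) in H-929 (circles) and RPMI (squares) minus the mean of the 6 carcinoma lines, as a difference of log2 CPM from the joint fit; HYOU1, CANX, DERL3 and FKBP2 are left out. XBP1 and ERN1 lie furthest to the right by the mean of both lines, and PDIA3 and CRELD1 lie left of 0 in both.

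Genes downstream of PERK were set beside the members, from a list of 7: ATF4, DDIT3, PPP1R15A, TRIB3, CHAC1, ATF3 and SESN2. SESN2 is a sum of 2 rows that share an identifier, and its values are uncertain. In RPMI all 7 were higher with a median of 3.05, beside 31.3% of all genes. In H-929 4 of 7 were higher, beside 26.4%, and none lower, and in DLD-1 5 of 6 tested were lower, beside 12.1%. DDIT3, the transcription factor CHOP, read 16.7, 13.2 and 13.7 CPM with DMSO and 133, 127 and 153 CPM with carfilzomib in H-929 and 8.54, 6.90 and 7.33 CPM with DMSO and 70.8, 72.3 and 74.8 CPM with carfilzomib in RPMI. Those rises, 3.24 ± 0.12 (SE; adjusted p = 7.8e-11) and 3.28 ± 0.083 (SE; adjusted p = 4.4e-12), were close in size, in the lines where HSPA5 moved in opposite directions. PPP1R15A (GADD34), which reverses the translation block, rose by 2.23 and 3.01, and in H-1299 by 2.07. ATF4 rose in RPMI (1.30 ± 0.054 SE, adjusted p = 2.0e-10) and was not called in H-929 (0.065 ± 0.073 SE, adjusted p = 0.485). ATF3 was called higher in 5 lines, by 0.62 in H-23 and 3.05 in RPMI. CHAC1, a glutathione-degrading enzyme, fell in 5 lines, by a log2 change of -2.60 in H-1299, and rose in RPMI by 3.41.

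**Figure D5:**
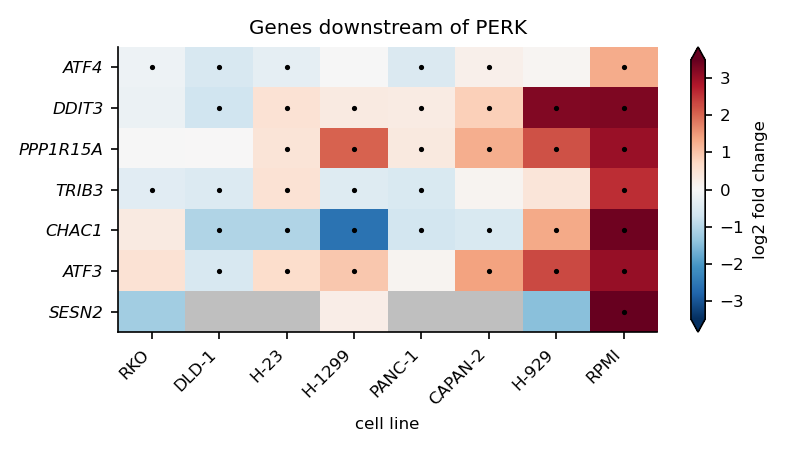
Log2 fold change (carfilzomib against DMSO) of 7 genes downstream of PERK (rows) in 8 lines (columns); dots mark an adjusted p under 0.05 and grey marks genes not tested. All 7 are higher in RPMI, and DDIT3 is at 3.24 in H-929 and 3.28 in RPMI. SESN2 is a sum of 2 rows.

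Further ER genes, from lists that exclude the members, moved with them in H-929. There 13 of 14 other translocon and signal peptidase genes were lower and none higher, as were 14 of 18 other folding enzymes (2 higher), 8 of 15 other ERAD genes (1 higher) and 9 of 14 other COPII and retrieval genes (none higher), beside 26.2% of all genes lower. In RPMI the same lists had 7 of 14, 11 of 18, 8 of 15 and 4 of 14 lower, with 2, 5, 4 and 5 higher, beside 32.2% of all genes lower and 31.3% higher, so the COPII and retrieval list was near the background there. H-1299 had 11 of 14 translocon and signal peptidase genes and 11 of 14 COPII and retrieval genes higher, with 1 lower in each, beside 29.9% of all genes higher. PPIB (cyclophilin B) and PDIA5, 2 folding enzymes, averaged -0.42 ± 0.027 (SE; adjusted p = 2.4e-18) and -0.45 ± 0.036 (SE; adjusted p = 5.2e-15) over the lines and were each called lower in 5 or more. SSR4, the delta subunit of TRAP, averaged -0.27, and ERLIN1, an ERAD scaffold of the ER membrane, -0.41. ERLIN2 of the ERAD list (-0.38) was also called lower in 5 lines. Other genes of these lists went the other way. UBXN4 (0.46) and FAM8A1 (0.22) of the ERAD list and SRPRB (0.058) of the translocon list were called higher in 5 lines. So was RTCB (0.15) of the UPR transducer list, and SEC13 (0.31) of the COPII list was called higher in 6. CREB3, an ER-anchored transcription factor of the UPR transducer list, was called higher in 7 lines, from 0.27 in PANC-1 to 1.41 in RPMI. The share of all genes called alike in 5 lines was not counted, so these genes are described singly.

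The members with an ERSE or ERSE-II match, 8 with 1 row, were compared with those that had a window without one. No test was made of this difference. The median change of the members with a match was above that of the others in 5 lines and below it in 3, H-23, H-1299 and PANC-1. In H-1299, 3 of 8 with a match were higher (median 0.039) and 18 of 27 without (median 0.32), beside 29.9% of all genes. In PANC-1, 7 of 8 with a match were lower (median -0.36) and 16 of 28 without (median -0.14), beside 18.2% of all genes. In H-929, 5 of 8 were lower (median -0.58) and 20 of 27 without a match (median -0.74), beside 26.2% of all genes. In RPMI, 4 of 8 were higher and 2 lower (median 0.13), beside 12 higher and 12 lower of 27 without a match (median 0.0021) and 31.3% higher and 32.2% lower of all genes. The 4 genes printed above were chosen partly for their unlike changes, and their values in RPMI are a description: 1.79 for HSPA5, 1.32 for HERPUD1, 0.23 for SDF2L1 and -0.51 for XBP1.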

How the data were processed

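The 43 members and all gene lists were chosen with earlier results of these data known. The authors deposited raw read counts per gene, not normalized, for the 48 libraries. Per the labels' protocols the libraries were stranded total RNA, while the design text speaks of mRNA. The submitters' processing notes name the build hg38, bcl2fastq 2.19, FastQC, Trimmomatic, HISAT2 and DESeq2; the counting program, annotation and use of strand are not given in the sources used here, so overlapping and antisense genes are uncertain. Of 33892 rows, 4803 share an identifier with another. Those of HYOU1, CANX and DERL3 (2 each) were summed. In the other lists, the rows of SESN2 (2), RNF5 (4) and ATF6B (4) were summed too.

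The main test was edgeR's quasi-likelihood F test (edgeR 4.0.16, R 4.3.3), run per line on 6 libraries with TMM scaling and filterByExpr, and jointly on all lines with 16 groups and the trended dispersion. It used Benjamini-Hochberg adjustment over all genes tested and calls at an adjusted p under 0.05. CPM values are TMM-scaled, from the line's fit for responses and the joint fit for DMSO levels. limma 3.58.1 with lines as units, DESeq2 1.42.0, other scalings and filters and left-out libraries or lines were alternatives. On simulated data the tests recovered 97.5% (RKO, 14351 genes), 94.0% (H-929, 15406 genes) and 83.5% (myeloma response contrast, 3950 genes) of 200 genes changed 2-fold. Of the genes called there, 2.99%, 6.47% and 4.02% had not been changed. The simulation gave every gene the same fixed dispersion and changed only genes above a minimum mean count, so it does not cover noisier or weaker genes. No replicate looked like a copy of another (lowest chi-square of 48 pairs, per degree of freedom, 3.33). SE values come from the edgeR fits and SD values from the 3 libraries of a group, and both hold the spread between replicates.

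Library values are given for 14 members fixed by name, for those called alike in 6 lines, for the largest rise and fall in each line and for the 3 largest values of each contrast. Of the other lists, the text names ATF4, DDIT3, PPP1R15A and at most 3 genes a list and direction called alike in 5 lines. CHAC1, EDEM3, EIF2AK3 and further members were named after their values were seen. Positions and exon lengths come from GENCODE 29 (hg38) for 40 of the 43 members, and promoters from RefSeq.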

Additional observations from a re-analysis of the deposited data

Results flagged for a closer look

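In 10 members the 2 myeloma lines responded in opposite directions, each called within its line. These members were picked by those calls, and the joint edgeR fit uses the same libraries. That their differences passed the threshold in it therefore adds no support. As RPMI minus H-929 on the log2 scale, the differences among chaperone genes were 2.52 for HSPA5, 1.40 for HSP90B1, 1.65 for DNAJB9, 1.52 for DNAJB11 and 1.49 for DNAJC3. For ERAD genes they were 1.83 for SEL1L, 1.32 for DERL1 and 0.853 for SELENOS. ATF6 differed by 0.692 and SEC24D by 1.11.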

How the results depend on the processing

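Counts of members called stayed within 1.5 times the value reported under DESeq2's size factors, no filter and the replicate block, in the comparisons where these were run. Exceptions under other settings follow, and the cause of each was not tested unless the setting itself leaves out samples or genes. Members higher in RKO fell from 2 to 1 with the DESeq2 test, with the listed rows alone and with members of 1 row, and to 0 in 1 fit of all libraries. That fit gave 10 higher in H-23 in place of 17. Library totals gave 11 lower in H-1299 in place of 7, with CALR at -0.011, and a mean of at least 50 counts gave 5 higher in H-929 in place of 3 and 3 lower in DMSO in place of 6. Leaving out 1 library at a time gave 0 to 1 higher in RKO, 5 to 10 in DLD-1, 11 to 16 in H-23 and 5 to 8 in PANC-1, and 2 to 6 lower in CAPAN-2; leaving out 1 replicate number gave 0 to 1 members lower in RPMI than in H-929. Of single values, HYOU1 in H-23 ranged from -0.036 (without carfilzomib replicate 2) to 2.31 and CANX in H-929 from -0.69 (without carfilzomib replicate 3) to 0.38 over fits that left out 1 library, and OS9 in H-929 turned to -0.15 in 1 fit of all libraries. With its listed row alone CANX stood at -0.22 in RKO, -0.040 on average and -1.62 in the DMSO contrast. The listed rows and the members of 1 row were alternatives chosen after seeing the data.

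The contrasts over lines depended on single lines. Without H-929, 24 members were higher on average in place of 15, and these averages changed sign: PDIA3 0.077, DERL1 0.094, DERL2 0.055, SEC61A1 0.019 and SEC23B 0.068. Averages also changed sign for HERPUD1 -0.097 and SEL1L -0.091 without RPMI, DNAJB11 -0.085 without H-1299 and SEC61B -0.064 without CAPAN-2. In the myeloma response contrast, leaving out H-929 gave 15 higher in place of 6 and 15 lower in place of 28, with HSP90B1 0.29, DNAJB9 0.45, DNAJB11 0.42, DNAJC3 0.36, MANF 0.16, SEL1L 0.90, DERL1 0.23, DERL2 0.035, OS9 0.13, SELENOS 0.20, ATF6 0.014, SEC24D 0.0049 and WFS1 0.53; leaving out RPMI gave 3 higher, with HSPA5 -1.09 and SYVN1 -0.52. In the DMSO contrast, 6 members were lower, against 2 without H-929 and 3 without CAPAN-2. Its values turned to HYOU1 -0.53, DNAJC10 1.12 and FKBP14 0.84 without H-929, DNAJC3 -0.051, OS9 -0.090, SEC23B -0.23 and WFS1 0.95 without RPMI, DNAJC10 0.020 without CAPAN-2, WFS1 0.041 without DLD-1, DNAJC3 -0.077 without H-23, DNAJC3 -0.062 without H-1299 and DNAJC3 -0.00038 with library totals. With lines as the units (limma), 0 members were higher and 0 lower on average, 0 responded higher and 5 lower in the myeloma lines, and 5 were higher and 0 lower in DMSO. Of 22304 genes, 0 were called on average, 1596 in the myeloma response contrast and 717 in DMSO.

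The replicate numbers were not treated as pairs in the main test. Of 24 correlations between same-numbered libraries of a line, 2 were over 0.1 (range -0.096 to 0.15), and 9 of 24 were the highest with their own number. In PANC-1 each replicate was highest with its own number (0.097, 0.073 and 0.072). Whether the numbers mark pairs was not tested. With the replicate block, 24 members were higher in H-1299 and 29 lower in H-929, and no count moved by over 1.5 times. Depth limits FKBP2 and DERL3, with at most 24 and 52 counts in a library.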
